A study of Glycine max and Zea mays with 6 samples.

Results

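The WRKY transcription factor genes of soybean (Glycine max) were described by the histone marks found at them in leaf. Members were the protein-coding genes on chromosomes 1 to 20 whose symbol is WRKY followed by a number in the RefSeq gene table of the assembly Glycine_max_v4.0. There were 61 of them among 46816 protein-coding genes, on 18 of the 20 chromosomes. Genes for WRKY proteins listed under other symbols were not members, so the results hold for these 61 genes and not for the family as a whole. The marks came from chromatin immunoprecipitation and sequencing (ChIP-seq) of untreated leaves of the William82 line, taken at about 10 days. The 3 soybean samples were H3K4me3 (trimethylation of lysine 4 of histone H3), H3K56ac (acetylation of lysine 56) and H3K36me3 (trimethylation of lysine 36), with 1 library each. No second genotype, treatment or time was sampled, so the comparisons below are between genes and not between plants. The deposited lists give the positions of enriched regions (peaks) without scores or counts of reads. The depth behind them is not known, so an unmarked gene below is one where the authors called no peak, whatever its signal. Leaf is a mixture of cell types, and a mark in few cells cannot be told apart from a weak mark in many. Of the leaf genes looked up, RBCS1 and RCABETA, for the small subunit and the activase of Rubisco, had all 3 marks, and CAB3, for a chlorophyll-binding protein, had H3K4me3 and H3K56ac.

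WRKY proteins are a large family of plant transcription factors, named after a conserved stretch of their DNA-binding domain, which is followed by a zinc finger. They bind a short promoter element called the W-box, and many are known as regulators of immunity, abiotic stress, senescence and development, often switched on quickly by a stimulus. In plants, H3K4me3 is known to mark the 5′ ends of transcribed genes, H3K36me3 the transcribed gene body, and H3K56ac promoters and young nucleosomes. Soybean WRKY numbers do not follow those of Arabidopsis, so a role is given below only where it is known for the soybean gene itself.

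Most WRKY genes carried the marks of gene ends, and few carried the mark of the gene body. A gene was counted as having H3K4me3 or H3K56ac when a peak lay within 1 kb of either end, and H3K36me3 when at least 1 bp of the gene lay in a region. H3K4me3 was found at 50 of 61 WRKY genes (82.0%, exact Clopper-Pearson 95% interval 70.0 to 90.6), against 73.1% of all protein-coding genes. H3K56ac was found at 46 (75.4%, interval 62.7 to 85.5), against 69.5%. Counted over genes of every length, both shares had intervals that took in the value of all genes. H3K36me3 was found at 17 (27.9%, interval 17.1 to 40.8), against 51.1% of all protein-coding genes, and this interval lay below that value. Members were taken by symbol, and 2348 protein-coding genes have a symbol of their own. Among these H3K4me3 was at 76.0%, H3K56ac at 70.1% and H3K36me3 at 44.3%, closer to the WRKY shares than the values of all genes. The intervals treat genes as independent, which members of a duplicated family need not be, and they cover counting error only.

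H3K36me3 was found only together with the other 2 marks. All 17 WRKY genes with H3K36me3 also had both other marks (27.9%, against 49.3% of all genes). Most protein-coding genes with H3K36me3 had both as well, 23074 of 23935. Another 27 had H3K4me3 and H3K56ac without H3K36me3 (44.3%, interval 31.5 to 57.6), against 16.3% of all genes, which made this the most common pattern of the family. H3K4me3 alone was found at 6 (9.84%, against 6.76%) and H3K56ac alone at 2 (3.28%, against 3.61%). H3K36me3 without both narrow marks was found at no member, whether with H3K4me3 (0.745% of all genes), with H3K56ac (0.333%) or by itself (0.76%). No mark was found at 9 (14.8%, interval 6.98 to 26.2), against 22.2% of all genes. Among genes with both narrow marks, H3K36me3 was present at 17 of 44 WRKY genes (38.6%, interval 24.4 to 54.5), against 75.1% of 30712 such genes in the whole table.

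**Figure D1:**
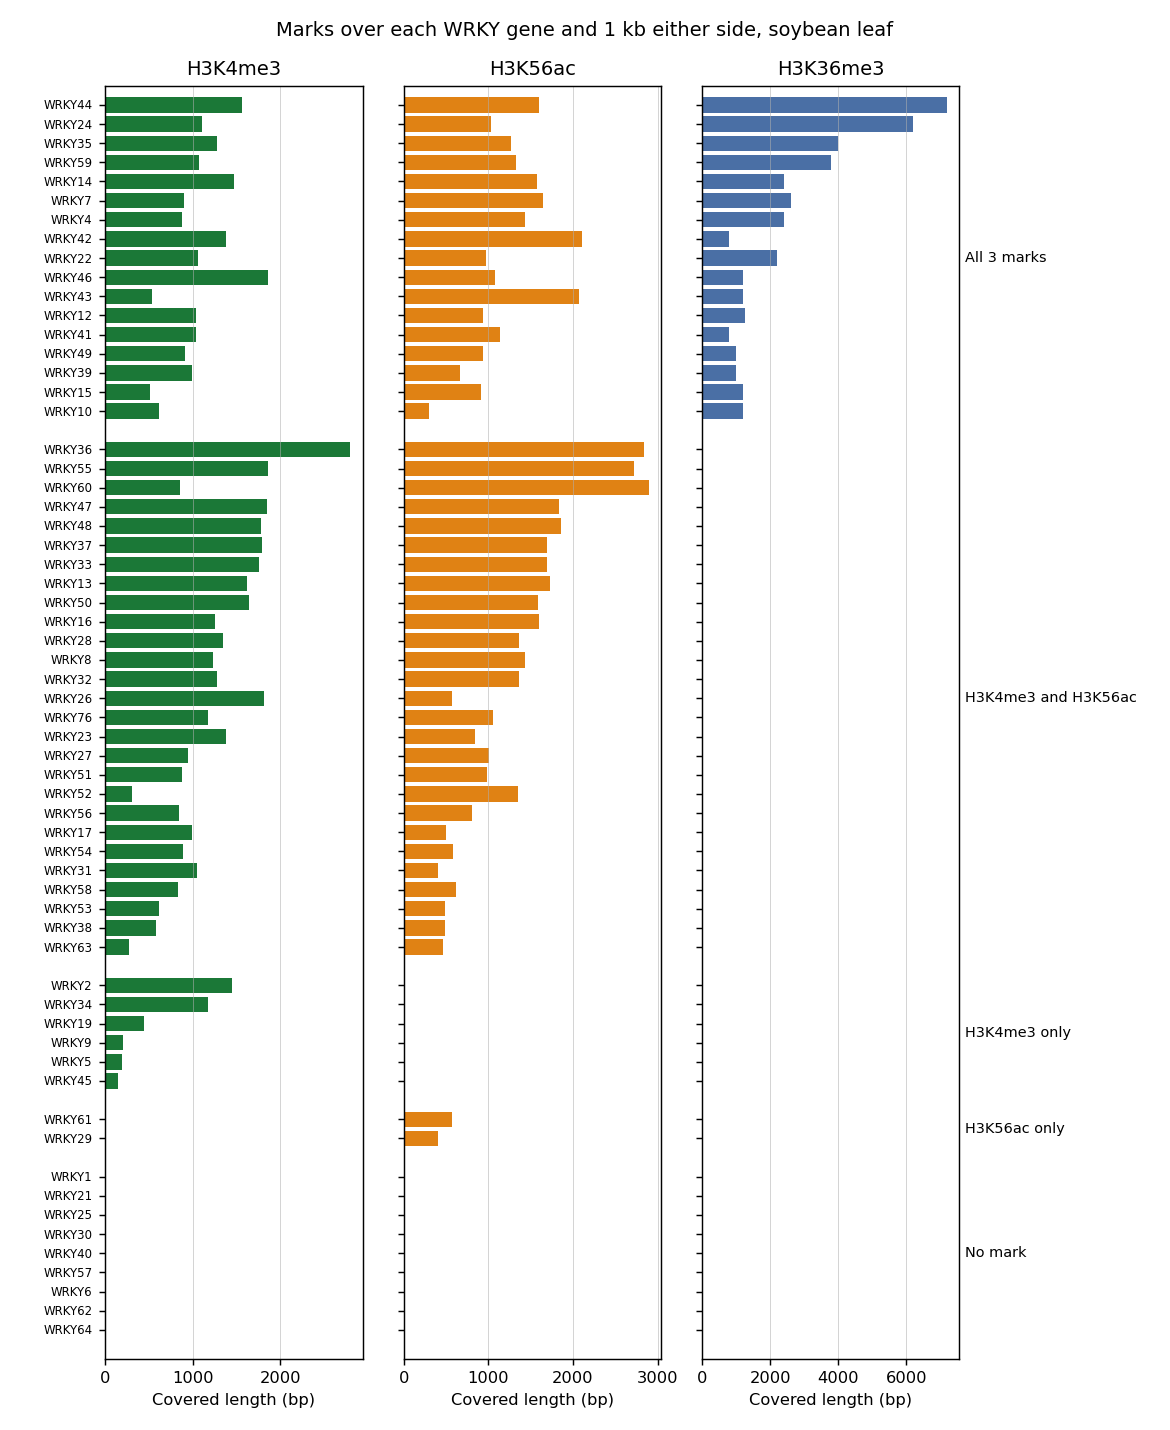
Covered length in bp of H3K4me3, H3K56ac and H3K36me3 over each of the 61 WRKY genes and 1 kb either side, 1 bar per gene, with genes grouped by the marks they carry and a separate scale in each panel. The 17 genes at the top carry all 3 marks, and the 27 below them carry H3K4me3 and H3K56ac at lengths that reach 2797 and 2896 bp without any H3K36me3.

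The 3 transcription factor families taken for comparison differed from WRKY in different ways. Their members were the genes with the symbols NAC, MYB or BZIP and a number. Like WRKY, these are large plant families with roles in stress and development. H3K36me3 was present at 27.9% of WRKY genes, 26.8% of 41 NAC genes (interval 14.2 to 42.9), 42.9% of 70 MYB genes (interval 31.1 to 55.3) and 63.6% of 77 BZIP genes (interval 51.9 to 74.3). H3K4me3 was present at 82.0% of WRKY genes, 51.2% of NAC genes (interval 35.1 to 67.1), 67.1% of MYB genes (interval 54.9 to 77.9) and 88.3% of BZIP genes (interval 79.0 to 94.5). Counted over whole lists, WRKY thus stood near BZIP for H3K4me3 and near NAC for H3K36me3. No mark was found at 14.8% of WRKY genes and 43.9% of NAC genes. Among genes with both narrow marks, H3K36me3 was at 38.6% of WRKY genes and 61.1% of NAC genes (interval 35.7 to 82.7). It was at 63.0% of such MYB genes (interval 47.5 to 76.8) and 75.4% of such BZIP genes (interval 63.1 to 85.2). The lists were not matched for gene length. The 2 narrow marks without H3K36me3 were found at 44.3% of WRKY genes, 17.1% of NAC genes (interval 7.15 to 32.1), 24.3% of MYB genes (interval 14.8 to 36) and 20.8% of BZIP genes (interval 12.4 to 31.5). These families were set side by side without a test.

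**Figure D2:**
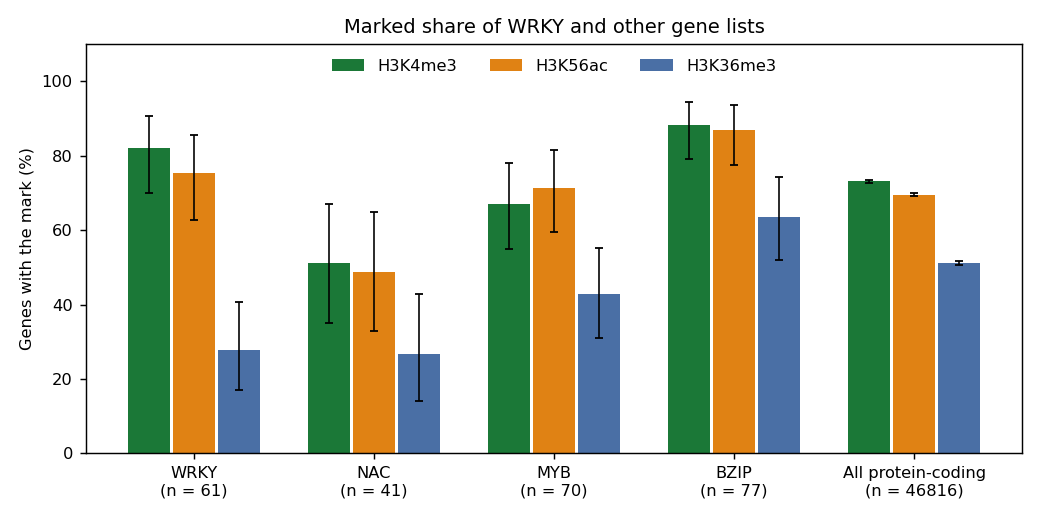
Percent of genes with each mark in the WRKY, NAC, MYB and BZIP lists and among all protein-coding genes; bars are shares and lines exact 95% binomial intervals. The H3K36me3 bars of WRKY (27.9%) and NAC (26.8%) are the lowest, while the H3K4me3 bar of WRKY (82.0%) stands above those of NAC, MYB and all genes.

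Gene length moved with these shares and was measured beside them. The median WRKY gene was 2700 bp long, and the median protein-coding gene 3351 bp. Below 2 kb, H3K36me3 was found at 4 of 16 WRKY genes (25.0%, interval 7.27 to 52.4), against 20.5% of all genes of that length. From 2 to 3 kb it was found at 5 of 22 (22.7%, interval 7.82 to 45.4), against 45.8%. From 3 to 5 kb it was at 4 of 12 (33.3%, interval 9.92 to 65.1), against 61.8%, and from 5 kb upwards at 4 of 11 (36.4%, interval 10.9 to 69.2), against 73.9%. The low share of H3K36me3 was thus seen in the WRKY genes of 2 kb or more, with 13 of 45 (28.9%, interval 16.4 to 44.3) against 62.9%, and not in the shorter ones. H3K4me3 showed the other picture, with the higher shares in the shorter WRKY genes. It was found at 13 of 16 WRKY genes below 2 kb (81.2%, interval 54.4 to 96.0), against 52.3% of all genes of that length, and at 20 of 22 from 2 to 3 kb (90.9%, interval 70.8 to 98.9), against 74.1%. From 3 to 5 kb it was at 9 of 12 (75%, interval 42.8 to 94.5), against 81.7%, and from 5 kb at 8 of 11 (72.7%, interval 39.0 to 94.0), against 84.6%. H3K56ac was found at 12 of 16 WRKY genes below 2 kb (interval 47.6 to 92.7), against 45.6% of all genes of that length. At 2 to 3 kb it was at 20 of 22 (interval 70.8 to 98.9), against 68.6%. At 3 to 5 kb it was at 6 of 12 (interval 21.1 to 78.9), against 79.1%. At 5 kb or more it was at 8 of 11 (interval 39.0 to 94.0), against 84.3%. For H3K56ac the values of all genes thus lay just below the interval under 3 kb and just above it from 3 to 5 kb.

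The 17 genes with all 3 marks were WRKY4, WRKY7, WRKY10, WRKY12, WRKY14, WRKY15, WRKY22, WRKY24, WRKY35, WRKY39, WRKY41, WRKY42, WRKY43, WRKY44, WRKY46, WRKY49 and WRKY59. The share of the gene under H3K36me3 ranged from 7.03% to the whole gene, with a median of 44.7%. All protein-coding genes with H3K36me3 and of the same span of lengths, 1507 to 9864 bp, had a median of 71.3% (n = 20098). Those genes were longer, with a median of 4267 bp, against 2886 bp for the 17 WRKY genes. H3K36me3 covered at least 50% of the gene in 6 members, which were WRKY14, WRKY24, WRKY22, WRKY59, WRKY44 and WRKY35.

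WRKY14, on chromosome 11 and 1662 bp long, was the single member wholly under H3K36me3. Its region of 2400 bp (Gm11, 3988801 to 3991200 in the authors' list) ran past the gene at both ends. H3K4me3 covered 83.8% of the gene and H3K56ac 83.1%. WRKY24, on chromosome 17 and 7557 bp long, had the longest single H3K36me3 region of the family, 6200 bp (Gm17, 5782001 to 5788200), over 80.4% of the gene. Of all H3K36me3 regions on the chromosomes, 90.5% were shorter. Its H3K4me3 and H3K56ac peaks, of 1105 and 1030 bp, lay together at the end where that region also ended. WRKY44, on chromosome 12, is the longest member at 9864 bp and had 2 H3K36me3 regions, of 4600 and 2600 bp, over 72.7% of the gene. It stood 71453 bp from its nearest annotated gene. WRKY22 and WRKY59 had 76.4% and 75.1% of their length under H3K36me3, each in 1 region that overlapped the narrow peaks at 1 of its ends. The longest narrow marks of these 17 genes were in others. WRKY46 had 1854 bp of H3K4me3 in 2 peaks, 1 of which lay mainly outside the gene. WRKY42, 2004 bp long, had 2107 bp of H3K56ac in 1 peak over 99.5% of the gene, with H3K36me3 over 36.4% of it. WRKY43 had 2075 bp of H3K56ac in 4 peaks, against 528 bp of H3K4me3.

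In 3 of these 17 genes the H3K36me3 call came from the edge of a region that lay mainly outside. WRKY12 had 16.7% of its 1507 bp under a region of 4600 bp (Gm01, 56446201 to 56450800), and its nearest gene, 938 bp away, had all 3 marks. WRKY43 overlapped its neighbour LOC100778475, which also had all 3, and had 7.03% of its length under a region of 3000 bp. WRKY46 had 10.9% of its length under a region of 1200 bp, but its nearest gene, 2128 bp away, was unmarked. These genes were singled out after their values were seen. Without them H3K36me3 was at 14 of 58 WRKY genes (24.1%).

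**Figure D3:**
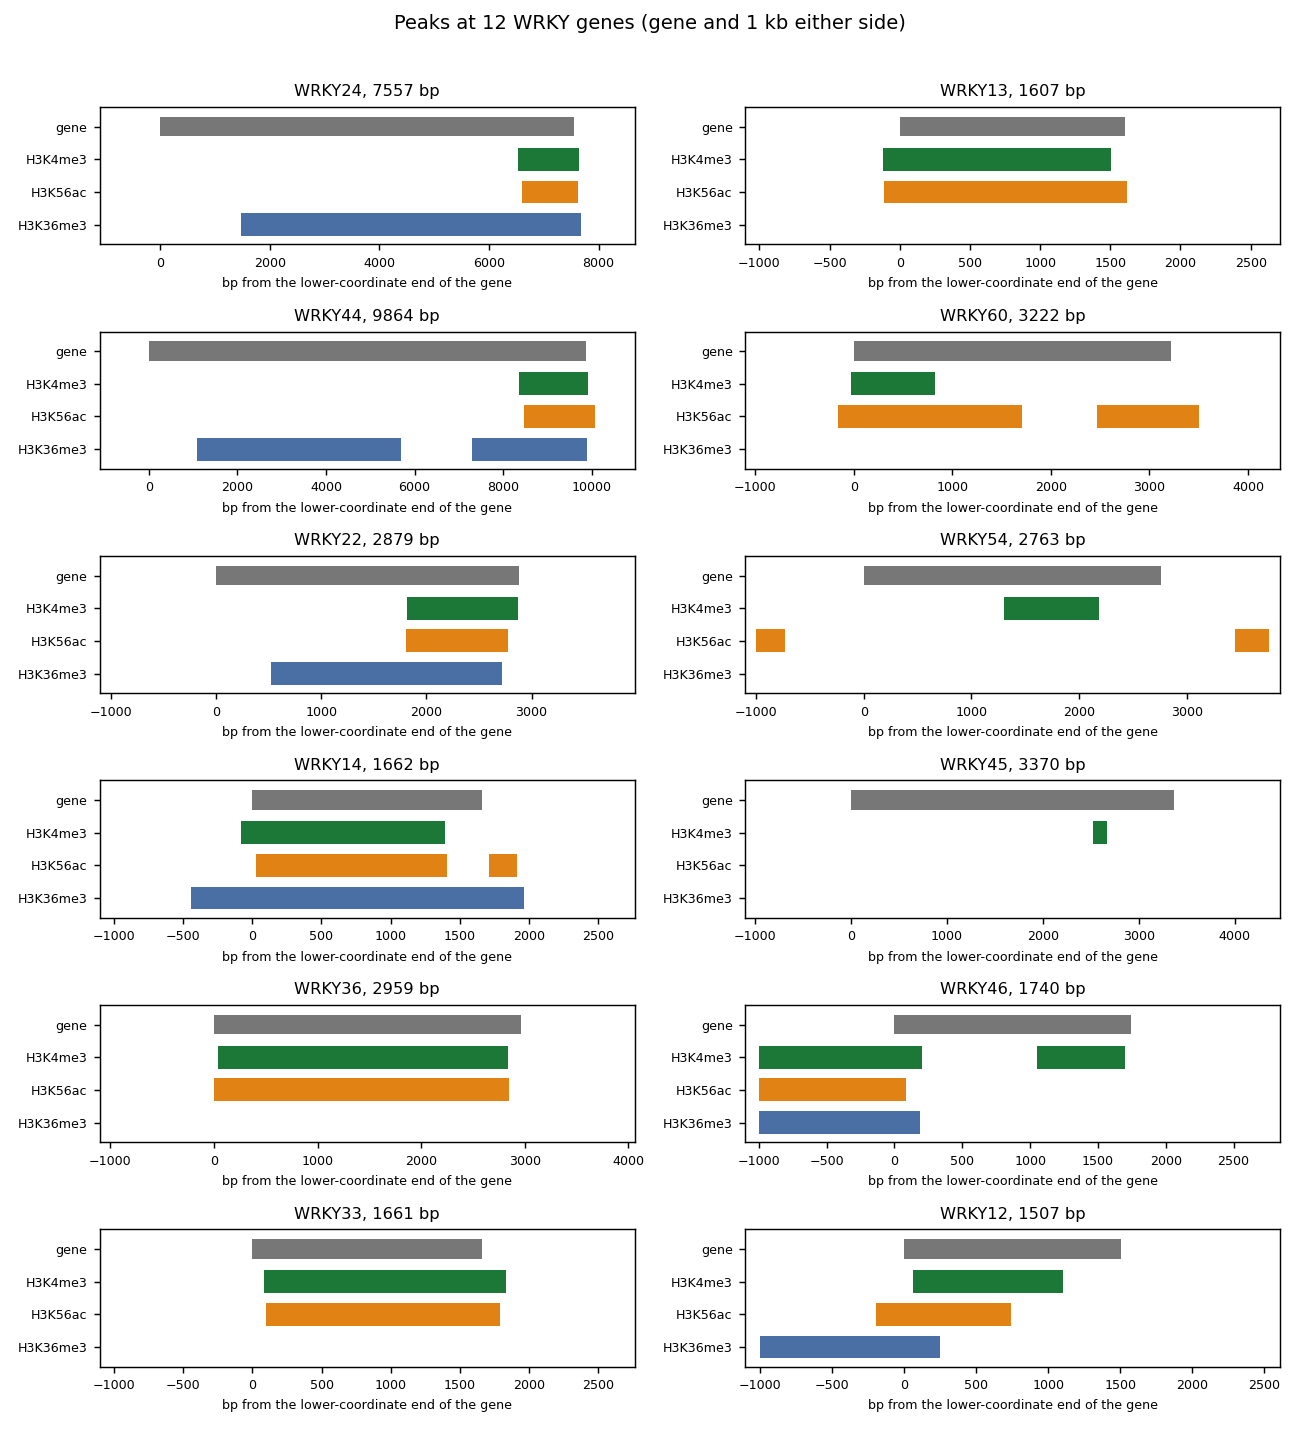
Peaks of the 3 marks (coloured bars) at 12 WRKY genes (grey bars), drawn to scale in bp from the lower-coordinate end of each gene and cut at 1 kb beyond it; the direction of transcription is not shown because the gene table has no strand. In WRKY24, WRKY44 and WRKY22 the narrow marks sit at 1 end of an H3K36me3 region, in WRKY36, WRKY33 and WRKY13 they span the gene without it, and in WRKY46 and WRKY12 H3K36me3 reaches in from outside.

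The 27 genes with H3K4me3 and H3K56ac but no H3K36me3 were WRKY8, WRKY13, WRKY16, WRKY17, WRKY23, WRKY26, WRKY27, WRKY28, WRKY31, WRKY32, WRKY33, WRKY36, WRKY37, WRKY38, WRKY47, WRKY48, WRKY50, WRKY51, WRKY52, WRKY53, WRKY54, WRKY55, WRKY56, WRKY58, WRKY60, WRKY63 and WRKY76. H3K4me3 covered 276 to 2797 bp of them and their 1 kb flanks, with a median of 1232 bp. The 7638 protein-coding genes of this pattern had a median of 877 bp. For H3K56ac the medians were 1349 bp in the WRKY genes and 862 bp in all genes of the pattern. At 19 of the 27 no H3K36me3 region lay within 5 kb of the gene (70.4%, interval 49.8 to 86.2), against 58.9% of all genes of the pattern, a value inside that interval.

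In a set of these genes the narrow marks ran along almost the whole gene. H3K4me3 covered at least 80% of 8 members, WRKY33, WRKY36, WRKY13, WRKY47, WRKY48, WRKY37, WRKY26 and WRKY50, at 82.5% to 94.9% of their length. H3K56ac covered 79.7% or more of the same genes, and the whole of WRKY13, except in WRKY26, where it covered 26.1%. Their nearest H3K36me3 region was 7.14 to 20.2 kb away. All 8 were between 1.5 and 3 kb long. Among genes of that length with both narrow marks and no H3K36me3, H3K4me3 covered at least 80% in 8 of 23 WRKY genes (34.8%, interval 16.4 to 57.3), 3 of 7 NAC genes, 1 of 9 MYB genes, 0 of 1 BZIP genes, and 9.35% of all 2557 such genes. With the limit at 50% of the gene the counts were 11 of 23 WRKY genes (47.8%, interval 26.8 to 69.4), against 33.1% of all, and this interval took in the value of all genes. For H3K56ac the counts of WRKY genes were 7 of 23 at the limit of 80% (30.4%, interval 13.2 to 52.9), against 7.9% of all, and 10 of 23 at 50% (43.5%, interval 23.2 to 65.5), against 28.2%. The limit of 80% was chosen after the values were seen.

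WRKY36, on chromosome 13 and 2959 bp long, had the longest H3K4me3 peak of the family, 2797 bp (Gm13, 39936185 to 39938981), in a list where 99.5% of the peaks on chromosomes were shorter. Its H3K56ac peak of 2843 bp (Gm13, 39936143 to 39938985) had nearly the same borders. WRKY13 and WRKY33 were alike in size, marks and surroundings. WRKY13, whose product made Arabidopsis plants more sensitive to salt when overproduced, is 1607 bp long and had 1623 bp of H3K4me3 and 1730 bp of H3K56ac. WRKY33 is 1661 bp long and had 1750 and 1689 bp. Their nearest genes were the auxin carrier genes PIN2A and PIN2B, each with H3K4me3 alone. WRKY47 had 1851 bp of H3K4me3, and beside the gene, with its near border 958 bp past the gene end, it had an H3K56ac peak of 3491 bp (Gm09, 5826711 to 5830201) that was longer than 99.6% of the peaks in its list.

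Other members of this pattern had the 2 narrow marks at different places or lengths. WRKY60 had 2896 bp of H3K56ac in 2 peaks, 1 at each end, the most of any member, but 854 bp of H3K4me3 at a single end. WRKY55 had 1854 bp of H3K4me3 and 2723 bp of H3K56ac. WRKY26 had 1810 bp of H3K4me3 and 573 bp of H3K56ac, the reverse relation, while WRKY52 had 306 bp of H3K4me3 and 1349 bp of H3K56ac. Among the 44 members with both marks, H3K56ac was the longer in 23, and the lengths were within 200 bp of each other in 24. Across all 61 members the covered lengths of the 2 marks had a Spearman rho of 0.714, against 0.782 across all 46816 genes. Genes are not independent replicates, and the points share both libraries.

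WRKY54 was the single one of the 44 members with both marks in which their peaks did not overlap. This gene, whose product raised the salt and drought tolerance of Arabidopsis when overproduced, had H3K4me3 over 885 bp inside its body (Gm10, 1065721 to 1066605) and no H3K56ac in the gene. Its H3K56ac peaks lay outside, 1 of 2532 bp whose near border was 732 bp from the gene and 1 of 724 bp at 688 bp from the other end. WRKY27, known in soybean for a role in salt and drought tolerance, had both marks at 1 end, over 721 and 650 bp. It also had a smaller pair of peaks, of 223 and 625 bp, outside the other end.

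**Figure D4:**
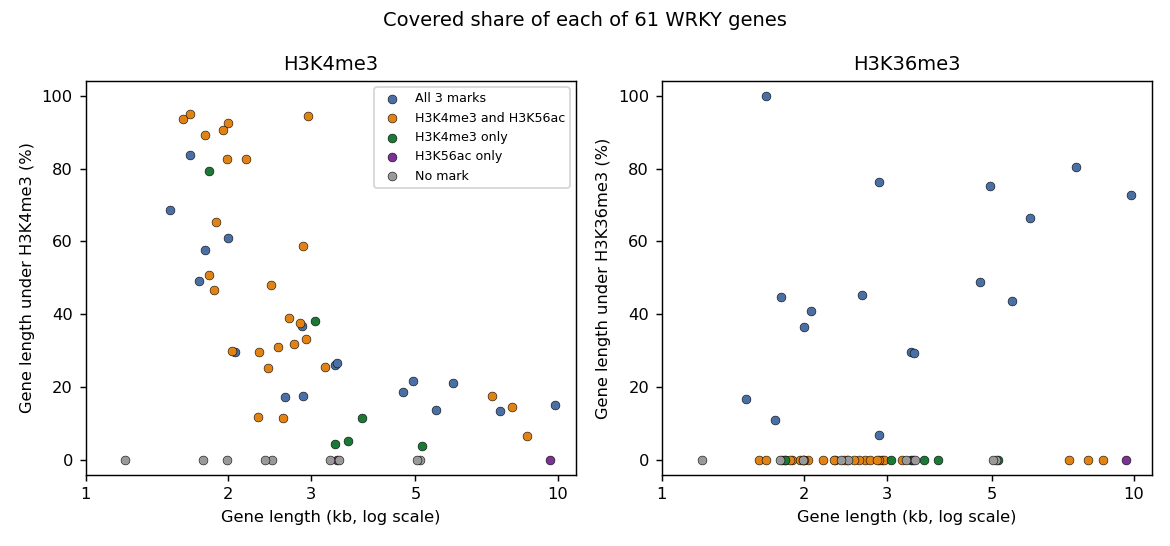
Percent of the gene under H3K4me3 (left) and H3K36me3 (right) against gene length in kb on a log scale, 1 point per WRKY gene, coloured by the marks carried. The points above 80% for H3K4me3 all lie between 1.5 and 3 kb and most of them are at 0 for H3K36me3.

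H3K4me3 was found alone at WRKY2, WRKY5, WRKY9, WRKY19, WRKY34 and WRKY45, and in 3 of them it was a short peak. WRKY45 had 147 bp (Gm04, 47766623 to 47766769), WRKY5 had 188 bp and WRKY9 had 200 bp. WRKY19 had 446 bp. WRKY2 and WRKY34 differed, with 1449 and 1175 bp, which in WRKY34 was spread over 3 peaks inside the gene and in WRKY2 was 1 peak over 79.3% of the gene. H3K56ac was found alone at WRKY29 and WRKY61. WRKY29, 9646 bp long, had peaks of 165 and 240 bp inside the gene. WRKY61 had a peak of 361 bp inside the gene and part of another, of 306 bp, outside it.

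The 9 genes without any mark were WRKY1, WRKY6, WRKY21, WRKY25, WRKY30, WRKY40, WRKY57, WRKY62 and WRKY64. Their lengths ranged from 1215 to 5105 bp with a median of 2483 bp. The 5 longest were WRKY1 with 5105 bp, WRKY30 with 5028 bp, WRKY62 with 3448 bp, WRKY6 with 3297 bp and WRKY21 with 2483 bp. WRKY21, whose product raised the freezing tolerance of Arabidopsis when overproduced, was 2224 bp from the nearest H3K4me3 peak and 2143 bp from the nearest H3K56ac peak. WRKY57 and WRKY40 were the farthest from H3K4me3, at 19474 and 11407 bp. The surroundings of the 9 differed. The nearest gene of any type had all 3 marks at 6 of them (66.7%, interval 29.9 to 92.5), against 28.1% of all 10390 unmarked protein-coding genes. It had no mark at WRKY21 and WRKY57 (22.2%, interval 2.81 to 60.0), against 51% of all unmarked genes, and WRKY57 was also 7750 bp from the nearest H3K56ac peak and 11773 bp from the nearest H3K36me3 region. Over all members the nearest gene had all 3 marks at 37 of 61 (60.7%, interval 47.3 to 72.9). The value of all protein-coding genes, 47.2%, was just below that interval. In the 1 Mb around them the unmarked members had a median of 91 other protein-coding genes, against 95 for all members.

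The calls of some members turned on the limit of 1 kb. With 2 kb, 5 of 61 members had no mark (8.2%, against 19.2% of all genes), H3K4me3 was at 54 and H3K56ac at 52. With 500 bp, 12 had no mark (19.7%, against 25.0%), H3K4me3 was at 47 and H3K56ac at 44. For H3K4me3 the member nearest to it on the inside was WRKY45, with its peak 702 bp from a gene end, followed by WRKY54 at 575 bp. On the outside the nearest was WRKY1, at 1151 bp. For H3K56ac it was WRKY54 at 688 bp on the inside and WRKY2 at 1202 bp on the outside.

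Of the members, 5 pairs of neighbours lay within 200 kb of each other. WRKY45 and WRKY21 on chromosome 4 are 24.6 kb apart, and the first had H3K4me3 while the second was unmarked. This contrast rests on the 147 bp peak of WRKY45, a length below which the H3K4me3 list has no peak. WRKY63 and WRKY30 on chromosome 17 are 22.2 kb apart, and WRKY63 had 276 bp of H3K4me3 and 463 bp of H3K56ac while WRKY30 was unmarked. WRKY10 and WRKY64 on chromosome 18 are 23 kb apart, and WRKY10 had all 3 marks while WRKY64 was unmarked. WRKY41 and WRKY51 on chromosome 3, 71.2 kb apart, differed in H3K36me3, which covered 44.7% of WRKY41, and shared the other marks. WRKY6 and WRKY40 on chromosome 8, 95 kb apart, were both unmarked. Pairs of members that lie apart were not compared in this way. Other genes lie between the members of each of these pairs.

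Where the marks sat along the gene was described for the 33 members of 2 kb or more with no other gene within 2 kb. H3K4me3 was at a single end, within 500 bp of it, in 19 (57.6%, interval 39.2 to 74.5), against 67.8% of 17281 protein-coding genes chosen in the same way. It lay at both ends in 8 (24.2%, interval 11.1 to 42.3), against 6.57%. With 250 bp at each end in place of 500 bp, this was so in 4 of 33 (12.1%), against 3.61%. The 8 did not all have separate peaks at the ends. In WRKY26, WRKY36 and WRKY47 a single peak over 82.6%, 94.5% and 92.5% of the gene reached both. These genes were also in the set above with H3K4me3 along almost the whole gene, so the results overlap. WRKY23, WRKY34, WRKY52 and WRKY55 had separate peaks. So did WRKY42, where a peak of 183 bp ended 1534 bp along the 2004 bp gene. H3K56ac lay at a single end in 18 (54.5%, interval 36.4 to 71.9), against 58.5%, and at both ends in 8 (24.2%), against 12.1%. H3K4me3 at both ends was more frequent among the shorter of these genes, in the WRKY list and in all genes alike. Among such genes of 2 to 3 kb, H3K4me3 lay at both ends in 7 of 18 WRKY genes (38.9%, interval 17.3 to 64.3), against 14.0% of 4193 genes. The narrow marks took the same side in 16 of the 16 members where each was at 1 end, against 98.6% of 9232 such genes in the whole table.

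Along the 19 members with H3K4me3 at a single end, the narrow marks at that end lay mainly inside the gene. Inside was counted over the whole gene, and outside only in the 1 kb beyond the H3K4me3 end. The median length of H3K4me3 was 911 bp inside the gene and 54 bp outside it, and for H3K56ac the medians were 932 and 45 bp. Counted so, each mark was longer inside than outside in 19 of 19. The same held for H3K4me3 in 98.5% and for H3K56ac in 98.1% of all protein-coding genes chosen in this way. The inside window was the longer one, which favours this result. WRKY7 had a further H3K56ac peak of 760 bp, mainly beyond its other end, that was not counted as outside. With it, WRKY7 had 1649 bp of H3K56ac over the gene and its flanks, 787 bp of them inside. At 500 bp into the gene, H3K4me3 covered 18 of the 19 genes (94.7%), against 87.8% of 11714 protein-coding genes. H3K36me3 covered 9 of the 19 (47.4%), against 72.4%. Any H3K36me3 in the gene was present at 10 of the 19 members and at 8887 of the 11714 genes. The H3K36me3 shares by position therefore also count genes without the mark, and they do not describe its place in marked genes alone. At 1500 bp H3K4me3 covered none of the 19, against 17.3% of all genes, and H3K36me3 covered 7 (36.8%), against 61.4%. The choice of genes with H3K4me3 at a single end bears on the first of these values. It left out the genes with H3K4me3 at both ends, 24.2% of the WRKY genes and 6.57% of all genes. Among those left out were WRKY26, WRKY36 and WRKY47, each with 1 peak that ran past 1500 bp. Of the 10 members with H3K4me3 at a single end and any H3K36me3, 8 had more H3K36me3 in the 50% of the gene nearer to H3K4me3 (80%, interval 44.4 to 97.5), against 84.6% of 8887 such genes in the whole table. In WRKY7 it covered 87.7% of this near part and none of the far part. WRKY15 had 15.1% in the near part and 75.5% in the far part, and WRKY44 had 67.6% in the near part and 77.8% in the far part.

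**Figure D5:**
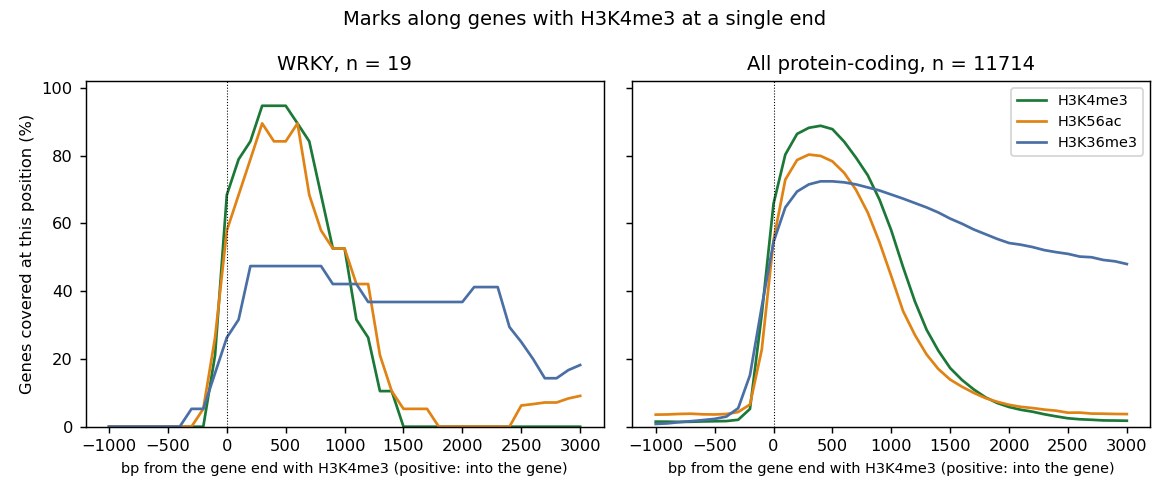
Percent of genes covered by each mark at each position from the gene end that carries H3K4me3, in bp, for 19 WRKY genes (left) and 11714 protein-coding genes (right), all at least 2 kb long with no gene within 2 kb and with H3K4me3 within 500 bp of a single end; beyond 2000 bp only genes that reach the position are counted. H3K4me3 and H3K56ac are highest between 300 and 600 bp into the gene in both panels, while H3K36me3 reaches 47.4% in the WRKY genes and 72.4% in all genes. Genes without any H3K36me3 are counted in these shares.

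Other genes of defence signalling were set beside the WRKY genes without a test. Among all protein-coding genes, H3K4me3 was at 73.1%, H3K56ac at 69.5% and H3K36me3 at 51.1%. Mitogen-activated protein kinases phosphorylate some WRKY factors, and 7 of 7 genes of that cascade had all 3 marks (interval from 59.0% upwards for each mark), MAPK2, MKK4 and MPK4A among them. H3K36me3 covered 69.6% of MAPK2 and 93.2% of MKK4. Of 12 immune signalling genes, all had H3K4me3 and H3K56ac and 8 had H3K36me3 (66.7%, interval 34.9 to 90.1). ICS1, an isochorismate synthase of salicylic acid synthesis, had 85.3% of its 14688 bp under H3K36me3, and PAD4, a lipase-like immune regulator, had 13.5%. EDS1-2, which encodes the partner protein of PAD4, had 879 bp of H3K4me3 and 1291 bp of H3K56ac without H3K36me3. The 8 PAL genes, for the first enzyme of phenylpropanoid synthesis, had H3K4me3 at 8, H3K56ac at 5 and H3K36me3 at 1, PAL3.1 (12.5%, interval 0.316 to 52.7). The TGA factors, of the bZIP class, numbered 15, with H3K4me3 at 8 of them, H3K56ac at 10 (66.7%, interval 38.4 to 88.2) and H3K36me3 at 5 (33.3%, interval 11.8 to 61.6). The H3K36me3 intervals of the PAL genes and the TGA factors took in both the 27.9% of the WRKY genes and the 51.1% of all protein-coding genes. These lists are too small to tell the 2 values apart. The PR1 genes, known as defence targets, had H3K4me3 at 1 of 8 (12.5%, interval 0.316 to 52.7), which was PR1-7 with 226 bp, and neither other mark at any (interval up to 36.9). These 8 PR1 genes are 723 to 831 bp long, below the shortest WRKY gene of 1215 bp. The kinase cascade genes are 2137 to 7342 bp long and the TGA genes 3193 to 9144 bp. Of all protein-coding genes of 5 kb or more, 70.9% had all 3 marks and 73.9% had H3K36me3. The lists were not matched for length. The genes of these lists were looked up by symbol, except that LOC100778851, counted among the 12 immune signalling genes, was found by its synonym EDS1. No gene with a VQ symbol, for the proteins that bind WRKY factors, was matched.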

How the data were processed

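ChIP-seq peak lists of 3 soybean leaf samples were used, with 1 library per mark; the maize list and both input samples were left out. Per the labels' protocols, the plants were kept at 25 °C in days of 16 h light and 8 h dark, and chromatin was fixed with 1% formaldehyde. The tools Bowtie2, MACS2, Picard, SICER and Trimmomatic are named in the submitters' processing notes without versions or roles, with a maize build alone. For the soybean lists, caller, threshold and build: not given in the sources used here. In the series' design text stands H3K4me1 for the sample labelled H3K4me3, and the label was followed. The deposited values are start and end positions per sample, so depth is unknown. The lists held 51233 H3K4me3, 60550 H3K56ac and 32245 H3K36me3 peaks, with median lengths of 860, 729 and 2400 bp. Ends in the H3K36me3 list, which lies on a 200 bp grid, were moved by 1 bp to match the others. Peak coordinates are printed counted from 1.

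Genes came from a RefSeq table of Glycine_max_v4.0 without strand, whose coordinates are not printed. The register of the lists against it was checked in the 1 Mb either side of each member: the percent of H3K4me3 peaks whose midpoint was at most 500 bp from an end of a protein-coding gene was above every value after shifts of 20 and 100 kb in both directions at 61 of 61 members. Small differences between builds would pass this check. Covered lengths are over the gene and 1 kb either side. Overlap code was tested on simulated intervals. Python 3.11.15, pandas 2.3.3 and scipy 1.17.1 were used. No test was run, since a mark had 1 library. The members and lists were chosen with earlier results of these data known. Members named with values were the 5 with the most H3K36me3 by percent of the gene, the most H3K4me3 and the most H3K56ac, the 5 longest without a mark, those of patterns with 3 or fewer members, those nearest to the 1 kb limit, and some singled out after their values were seen. The planned WRKY groups I to III, paralog pairs, W-box counts and gene starts, and a list of WRKY proteins with other symbols, need protein, promoter or strand tables not used here and were not run.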

Additional observations from a re-analysis of the deposited data

How the results depend on the processing

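Under each alternative tried for the shares of marked genes, H3K36me3 was the least frequent mark of the WRKY genes, and its share was below that of all protein-coding genes. In the longer 50% of each list, H3K4me3 was at 52.5% of WRKY genes, H3K56ac at 52.5%, H3K36me3 at 13.1%, all 3 marks at 11.5% and no mark at 41.0%. The values for all genes were then 49.4%, 50.2%, 33.2%, 25.0% and 38.8%. With H3K36me3 counted only from 50% of the gene upwards, it was at 9.84% of WRKY genes (39.1% of all), all 3 marks were at 9.84% (38.3%), and among genes with both narrow marks it was at 13.6% (58.4%). These moves follow from fewer peaks or a stricter rule. The other 48 of 56 values lay inside the interval of the value reported, but 3 of them moved by over 1.5 times: members without a mark at 8.2% with 2 kb, H3K4me3 at both ends at 12.1% with 250 bp, and H3K36me3 among members with both narrow marks at 25.0% in the longer 50% of each list (59.1% of all). The 48 came from these 2 stricter alternatives in part, from windows of 500 bp and 2 kb, an overlap of 100 bp and genes with no other gene within 2 kb, and from alternatives chosen after seeing the data: narrow marks anywhere in the gene, leaving out WRKY12, WRKY43 and WRKY46, adding genes with WRKY as a synonym, and windows of 250 bp and 1 kb for marks at both ends. Some of the 48 values could not move, so their number overstates how stable the results are. The rules for the narrow marks do not enter the H3K36me3 call, which stayed at 27.9% under them. The rule of 50% for H3K36me3 does not enter the calls of H3K4me3 and H3K56ac. No paired analysis was possible because each mark has 1 library, and no library could be left out. Without scores or reads, a peak missed for lack of depth cannot be told from a gene without the mark.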

Other observations

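The gene table lists WRKY as a synonym of 3 further protein-coding genes that carry no WRKY symbol of their own. LOC100170685, with the synonyms WRKY11 and WRKY15a, had all 3 marks, with 88.8% of its 2054 bp under H3K36me3, 2108 bp of H3K4me3 and 2141 bp of H3K56ac. LOC100805895 also had all 3, with the whole of its 1739 bp under H3K36me3. LOC100784158 had 984 bp of H3K4me3 and no other mark. The H3K36me3 cover of the first and second was above that of each of the 61 members except WRKY14, which was also wholly covered.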
